A study of Mus musculus with 4 samples.

Results

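A set of 10 genes that serve as markers of activated parietal epithelial cells was followed in single cells of mouse glomeruli: Cd44, Cd9, Tnfrsf12a, Sfn, Vim, Krt7, Krt8, Krt18, Krt19 and Akap12. They are 10 of the 52636 genes in the deposited tables, and all 10 were found by their symbol. The genes were chosen by their known association with parietal activation and by measured values of these same libraries. These values were their UMI counts per library and cell type, young against aged, with parietal epithelial cells and podocytes in focus. The members' age differences in every class are therefore given as descriptions with a standard error. Counts of members past the threshold of the fit across all genes are descriptions too, and support nothing. A UMI, or unique molecular identifier, marks 1 captured transcript molecule.

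Glomeruli, the filtering tufts of the kidney, were isolated from young and from aged mice (Mus musculus) after perfusion with magnetic beads, digested to single cells and profiled with droplet-based 3' RNA sequencing. There were 2 young and 2 aged libraries, and no animal had been treated. The labels give neither the age in months nor the sex, the strain or the number of mice behind a library, and they carry no transgene or mutation. Standard errors and p-values below thus cover the spread between these 4 libraries, which may be technical.

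Parietal epithelial cells are the flat cells that line Bowman's capsule, the cup around each glomerular tuft. In glomerular injury such as focal segmental glomerulosclerosis or crescentic disease they enlarge, divide, move onto the tuft and lay down matrix, and they then carry CD44, a hyaluronan and osteopontin receptor that is nearly absent from resting cells. Podocytes, their neighbours on the tuft, descend from the same embryonic epithelium and wrap the capillaries with foot processes.

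After filtering, the young libraries had 5035 and 6976 cells and the aged libraries 9187 and 6802, with median depths from 1258 to 3730 UMIs per cell, the lowest in young replicate 2. Between 37 and 74 cell barcodes of a library also occurred in another one. In young replicate 2, 4142 of the 6976 kept cells lay in clusters that were left unnamed. Of these, 2694 lay in a mixed cluster whose best class was podocyte, with a median of 981 UMIs per cell. Another 1147 lay in a mixed cluster whose best class was mesangial. Parietal epithelial cells numbered 30 and 50 in young libraries and 40 and 40 in aged ones, in all 160 of 28000 kept cells. Their summed depth was 150541 and 163848 UMIs in young and 230789 and 342812 in aged libraries. Podocytes numbered 1749 and 600 in young and 978 and 653 in aged libraries. With cells named one by one, young replicate 2 had 1649 podocytes.

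The classes were named from marker lists, and cells mixed by these lists were left out. The marker levels below thus describe the classes and are no independent check of their names. The 7 parietal markers (Cldn1, Pax8, Pax2, Aldh1a2, Dkk3, Lad1 and Ncam1) were all detected in the parietal class of every library, at a summed 1351 to 2136 CPM (UMIs per 1000000 UMIs of a class in 1 library), against 56.8 to 96.1 in podocytes. The 7 podocyte markers summed to 438 to 861 CPM in the parietal class, which is 2.25% to 4.42% of their level in podocytes. Of the 5 thick limb and distal tubule markers, 1 was seen in each parietal sum, at 4.33 to 6.64 CPM. Collecting duct markers were at 0 in 3 libraries and at 2.92 CPM in aged replicate 2. Urothelial markers were at 0 in both young libraries and at 30.3 and 11.7 CPM in the aged ones. Proximal tubule markers stood at 73.1 and 152.6 CPM in young parietal sums and at 112.7 and 70.0 in aged ones, and mesangial markers at 232.5 and 262 against 126 and 198. Endothelial markers stood at 286 and 391 CPM in young parietal sums and at 117 and 46.7 in aged ones. Fibroblast markers stood at 259 and 256 in young and 126 and 128 in aged sums, and smooth muscle markers at 2119 and 2215 against 2990 and 2450. Of the 6 smooth muscle markers, Myh11, Cnn1 and Rergl were at 0 in every parietal sum. The UMIs came from Acta2 and Tagln, and in young replicate 2 also from Ren1. The part of these other cell types in the age differences below was not tested.

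The members lie on 7 chromosomes of GRCm38. Cd44 (ENSMUSG00000005087) spans 2:102811141-102901665 on the minus strand, and Vim (ENSMUSG00000026728) spans 2:13573927-13582826 on the plus strand. Tnfrsf12a (ENSMUSG00000023905) lies at 17:23675445-23677468 on the minus strand, Sfn (ENSMUSG00000047281) at 4:133600556-133602168 on the minus strand and Cd9 (ENSMUSG00000030342) at 6:125460266-125494791 on the minus strand. Akap12 (ENSMUSG00000038587) lies at 10:4266380-4359470 on the plus strand and Krt19 (ENSMUSG00000020911) at 11:100140810-100148665 on the minus strand. The other keratins are on chromosome 15. Krt7 (ENSMUSG00000023039) spans 15:101411043-101430313 on the plus strand. The partners Krt8 (ENSMUSG00000049382, 15:101996698-102004482, minus strand) and Krt18 (ENSMUSG00000023043, 15:102028180-102032027, plus strand) begin 23.7 kb apart and are read away from each other. Cd44, Cd9, Krt7 and Krt8 overlap a gene on the opposite strand, and whether the authors' counting used strand is not given in the sources used here. The pseudogenes Krt8-ps and Cd9-ps, which resemble their parent genes, had 0 UMIs.

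RefSeq promoter sequences of GRCm38.p6 were at hand for 8 of the 10 members, all but Krt19 and Akap12. The 250 bases before the start site are printed for Tnfrsf12a and Sfn. Levels of both in aged parietal epithelial cells stayed above the young ones without the 3 keratin-rich cells described below. Those of Cd44, Vim and Akap12 did so too. Capitals mark the GC box, the letters GGGCGG or their reverse CCGCCC. The Tnfrsf12a stretch is 17:23677450-23677699 on the minus strand and the Sfn stretch is 4:133602169-133602418 on the minus strand.
Tnfrsf12a: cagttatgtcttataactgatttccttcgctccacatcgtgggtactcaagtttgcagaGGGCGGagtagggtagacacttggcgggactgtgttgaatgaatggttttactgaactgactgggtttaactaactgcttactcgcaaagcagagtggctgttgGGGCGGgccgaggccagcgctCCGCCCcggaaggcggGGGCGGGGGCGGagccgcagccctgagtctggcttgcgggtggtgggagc
Sfn: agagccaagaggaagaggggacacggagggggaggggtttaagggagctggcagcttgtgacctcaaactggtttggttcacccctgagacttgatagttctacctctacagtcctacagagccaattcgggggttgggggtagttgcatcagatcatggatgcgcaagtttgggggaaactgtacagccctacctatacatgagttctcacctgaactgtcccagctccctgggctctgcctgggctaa

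Tnfrsf12a held 5 GC boxes, which began 191, 87, 66, 50 and 44 bases before the start, and Sfn held none. GC boxes also stood before Cd9 and Krt7, so 3 of 8 members held one, against 32.7% of 32851 promoters of that length. Vim alone among the 8 held a TATA box (TATAAA or TTTATA), 32 bases before its start, a motif found in 12.4% of all promoters. The AP-1 letters TGACTCA (or TGAGTCA), the TEAD letters GGAATG (or CATTCC) and the E-box letters CACGTG stood in 0 of the 8 stretches and in 4.46%, 12.6% and 6.02% of all promoters. Both strands were searched, and the last 2 GC boxes of Tnfrsf12a abut. A match describes letters only.

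The cell classes that held most UMIs of a member differed from member to member. Levels in CPM are compared within a gene. Of the Krt7 UMIs in kept cells 72.6% lay in podocytes, and podocytes also held 44.8% of those of Vim and 28.4% of those of Tnfrsf12a, of which endothelial cells held 38.8%. Cells of the thick limb and distal tubule held 76.9% of the Krt8, 76.8% of the Krt18 and 66.0% of the 53 Krt19 UMIs. Macrophages held 51.2% and monocytes and dendritic cells 39.4% of the Cd44 UMIs. Endothelial cells, the most frequent class, held 66.7% of the Cd9 and 45.6% of the Akap12 UMIs, and mesangial cells held 35.6% of the Akap12 UMIs. Parietal epithelial cells, 0.571% of kept cells, held 22.4% of the Sfn (against 24.1% in thick limb and distal tubule cells), 5.49% of the Krt8, 3.93% of the Tnfrsf12a and 3.80% of the Akap12 UMIs.

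**Figure D1:**
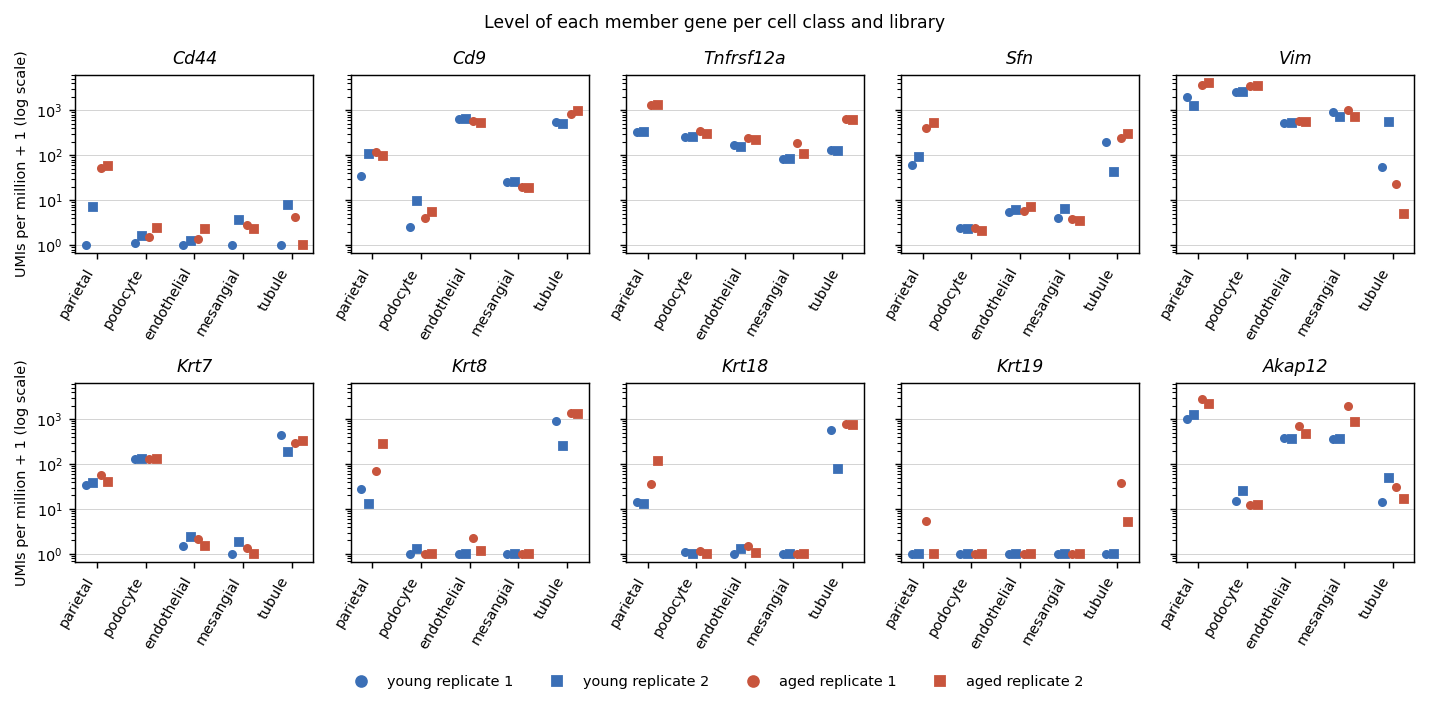
Level of the 10 members (CPM plus 1, log scale) in 4 glomerular classes and in thick limb and distal tubule cells, with 1 point per library (blue young, red aged, circle replicate 1, square replicate 2). Tnfrsf12a, Sfn, Vim, Akap12 and Cd44 sit higher in both aged than in both young libraries of the parietal class, while Krt7 in podocytes stays between 127 and 132.

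In parietal epithelial cells, 6 of the 10 members were higher in both aged than in both young libraries and passed the count filter. They were Cd44, Krt8, Sfn, Tnfrsf12a, Vim and Akap12. Cd9 overlapped between the ages, and Krt7, Krt18 and Krt19 had too few UMIs to pass. Each of the 6 also passed an adjusted p of 0.05 (Benjamini-Hochberg) in the quasi-likelihood fit of edgeR across all genes, in which 167 of 3767 genes (4.43%) were called, 85 of them higher (2.26%). Groups did not overlap for 47.5% of the genes tested. The members were selected on this contrast, so nothing is read from their count.

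Among the surface proteins, Tnfrsf12a encodes Fn14, the receptor of the cytokine TWEAK. Its level was 325 and 323 CPM in young parietal sums and 1339 and 1295 in aged ones, from 49, 53, 309 and 444 UMIs. Both aged libraries stood far above both young ones, and the libraries of each age lay close together. The log2 fold change was 2.03 ± 0.19 (SE, n = 2 against 2), and the pooled UMIs differed 4.05-fold (95% exact conditional interval 3.29 to 5.03, for counting error only). Over the 13 alternative settings the log2 fold change ranged from 1.82 to 2.14.

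Cd44 was at 0 and 6.10 CPM in young sums and at 52.0 and 55.4 in aged ones. These levels rest on 0, 1, 12 and 19 UMIs, found in 0 of 30, 1 of 50, 10 of 40 and 8 of 40 cells. The ages did not overlap, yet the young side is a single UMI. The pooled ratio was 17.0 with an interval from 2.83 to 692, and the fitted log2 fold change of 3.88 ± 0.88 depends on so few young UMIs. Without young replicate 2 the fitted value was 6.72, and without either aged library Cd44 did not pass the count filter. A count of 0 in 30 cells allows a share of up to 10.0% of cells with a detected UMI, which does not limit the share of cells that express the gene. In endothelial cells, taken as a class with little CD44, 0% to 0.335% of cells had a Cd44 UMI, at median depths of 2302 to 3158.5 UMIs per cell against 1318 to 5471 in parietal cells. In aged parietal cells the share was 25.0% and 20.0%, at median depths of 4478 and 5471 UMIs. Macrophages, with 51.2% of the Cd44 UMIs, numbered 3 and 12 in young and 543 and 474 in aged libraries. Macrophage markers stood at 66.4 and 79.3 CPM in young parietal sums and at 82.3 and 72.9 in aged ones. The part of Cd44 UMIs from leukocytes in the parietal class was not tested. Leaving out the cell with the most Cd44 UMIs of each library gave 0, 0, 46.1 and 36.1 CPM.

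Cd9, a tetraspanin that organises integrins and growth factor receptors at the membrane, was at 33.2 and 104 in young and at 117 and 96.3 in aged parietal sums. Aged replicate 2 lay below young replicate 2, so the ages overlapped. The log2 fold change was 0.61 ± 0.41, and it ranged from 0.08 without young replicate 1 to 1.67 at a mitochondrial limit of 10%.

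Sfn encodes 14-3-3 sigma, an epithelial scaffold protein that is a p53 target and restrains the cell cycle. It was at 59.8 and 91.5 CPM in young parietal sums and at 412 and 516 in aged ones. Both aged libraries exceeded both young ones, with a log2 fold change of 2.62 ± 0.29. Sfn UMIs were seen in 5 of 30 and 6 of 50 young and in 19 of 40 and 13 of 40 aged cells, so most cells of either age showed none. The 3 cells with at least 10 Krt8 UMIs described below held 8 of the 95 Sfn UMIs of aged replicate 1 and 84 of the 177 of aged replicate 2. Without them the aged levels were 385 and 308 CPM, still above both young ones. Sfn did not pass the count filter once cells with a tubule marker UMI were left out. In mesangial cells 1.60% to 3% of cells had one.

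Akap12 encodes gravin, an anchoring scaffold for protein kinases A and C at the cell cortex. It was at 1030 and 1221 CPM in young parietal sums and at 2777 and 2199 in aged ones. The ages did not overlap, and the log2 fold change was 1.15 ± 0.17. At a clustering resolution of 0.5, where tubule cells joined the class, it was 0.60.

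Vim encodes vimentin, the intermediate filament of mesenchymal cells and podocytes. It stood at 1979.5 and 1263 in young and at 3609 and 4133 in aged parietal sums. Both aged libraries were higher, by a log2 fold change of 1.27 ± 0.19, which was 0.67 at resolution 0.5. In aged replicate 1, every one of the 40 parietal cells had a Vim UMI, and in the other libraries 25 of 30, 41 of 50 and 37 of 40 had.

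The keratins, intermediate filaments of simple epithelia, rested on few cells. Krt8, the type II partner, was at 26.6 and 12.2 CPM in young sums and at 69.3 and 280 in aged ones, from 4, 2, 16 and 96 UMIs. The log2 fold change was 3.27 ± 0.66, but Krt8 UMIs were found in 2, 1, 3 and 5 cells of the 4 libraries. Leaving out the cell with the most Krt8 UMIs of each library gave 6.89, 0, 8.85 and 147 CPM. Aged replicate 1 then lay close to young replicate 1, and aged replicate 2 stood apart. Without aged replicate 2 the log2 fold change was 1.84. Krt18, the type I partner of Krt8, had 2 and 2 UMIs in young cells and 8 and 40 in aged ones, and 34 of those 40 were in 1 cell. Krt7, a type II keratin of ducts, had 5, 6, 13 and 13 UMIs, or 33.2, 36.6, 56.3 and 37.9 CPM, and its pooled ratio was 1.30 (0.619 to 2.91). Krt19, a type I keratin of ducts, had 1 UMI in all 160 parietal cells.

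The plot of keratin against vimentin UMIs sets the Krt8 cells apart. There were 3 parietal cells with at least 10 Krt8 UMIs, all of them aged. The first, in aged replicate 2, had 49 Krt8, 4 Krt18, 38 Sfn, 27 Tnfrsf12a and 7 Vim UMIs among 22114. The second, also in aged replicate 2, had 39 Krt8, 34 Krt18, 46 Sfn and 30 Tnfrsf12a UMIs and 0 of Vim among 19237. The third, in aged replicate 1, had 14 Krt8, 6 Krt18, 8 Sfn, 14 Tnfrsf12a and 4 Vim UMIs among 4787. They held 3, 1 and 1 UMIs of the thick limb and distal tubule, collecting duct and proximal tubule markers and 24, 3 and 3 of the parietal markers. Without these 3 cells, Krt8 was at 8.85 and 26.5 CPM in aged parietal sums and overlapped with the young 26.6 and 12.2. Krt18 was then at 8.85 and 6.63 in aged sums, below the young 13.3 and 12.2. Tnfrsf12a stayed at 1305 and 1284, and Akap12 and Vim were slightly higher than with them. Whether they are parietal cells or cells of a neighbouring tubule was not tested.

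**Figure D2:**
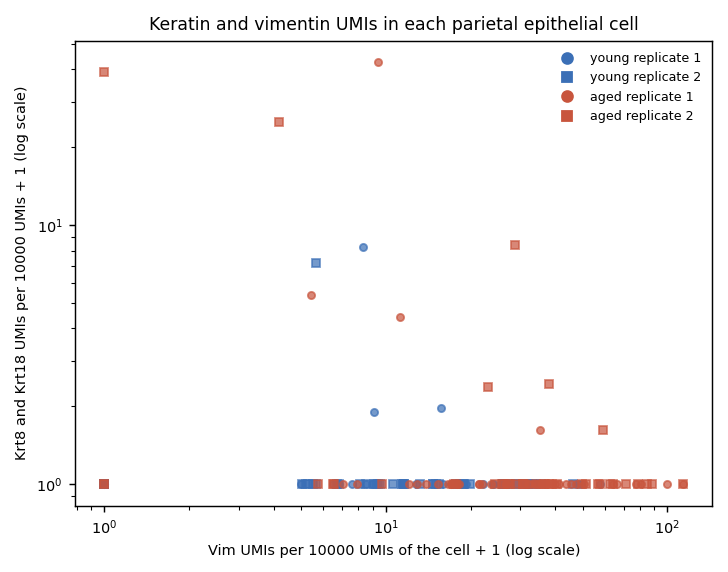
Each point is 1 of the 160 parietal epithelial cells, with Vim UMIs on the x axis and summed Krt8 and Krt18 UMIs on the y axis, both per 10000 UMIs of the cell plus 1 on log scales. Most cells of either age lie on the line without keratin UMIs, and the 3 cells with the most keratin UMIs are aged and low in Vim.

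Depth differed between the libraries, with a median of 3476.5 and 1318 UMIs per parietal cell in young libraries and 4478 and 5471 in aged ones. Each cell was therefore also thinned to 1000 UMIs, which left out 16 cells of young replicate 2 and none of the other libraries. Tnfrsf12a was then seen in 30.0% (95% exact interval 14.7% to 49.4%) and 23.5% (10.8% to 41.2%) of young parietal cells and in 77.5% (61.5% to 89.2%) and 80.0% (64.4% to 90.9%) of aged ones. The unthinned shares were 60.0%, 48.0%, 97.5% and 97.5%. These intervals cover the counting of cells within 1 library only, and cells are not replicates of an age. In B cells 0% to 6% had a Tnfrsf12a UMI without thinning, at median depths of 1200 to 1727 UMIs.

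The other members showed smaller gaps in thinned cells. Akap12 was seen in 56.7% and 50% of young and 80.0% and 65.0% of aged cells, and Vim in 66.7% and 70.6% against 90.0% and 80.0%. Sfn was seen in 3.33% and 8.82% against 22.5% and 12.5%. For Akap12, Vim and Sfn both aged shares were above both young ones. Cd44 was seen in 0 and 0 young cells and in 1 aged cell of each library, so thinned cells show no difference that could be read.

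**Figure D3:**
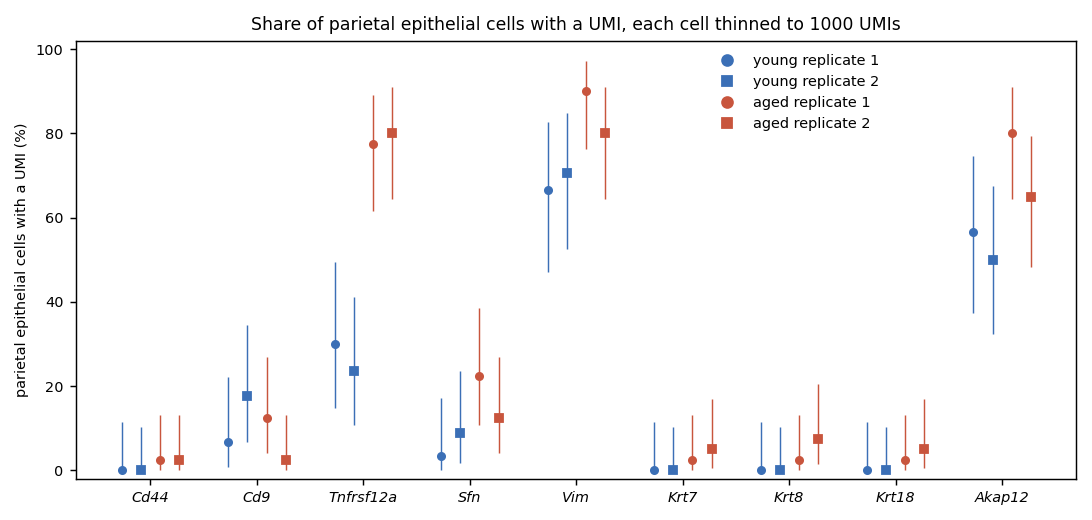
Share of parietal epithelial cells (y axis, %) with at least 1 UMI of a member after thinning each cell to 1000 UMIs, per library, with 95% exact binomial intervals that cover counting error only. Tnfrsf12a was seen in 23.5% to 30.0% of young against 77.5% to 80.0% of aged cells, and the intervals of Akap12, Vim and Sfn overlap between ages.

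The members were also counted per cell. Thinned parietal cells showed a mean of 1.63 and 1.71 of the 10 members in young libraries and 2.92 and 2.60 in aged ones. Tnfrsf12a, Vim and Akap12 were seen together in 10.0% and 14.7% of young and in 57.5% and 47.5% of aged parietal cells. In podocytes these 3 genes met in 0% to 1.05% of cells, and Akap12 by itself was near background there. Each of the 3 genes had a higher share in aged parietal cells above, so their joint share is no separate result. The share of parietal cells with 4 or more members was 0% and 5.88% in young and 20.0% and 15% in aged libraries.

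The grouping of the cells used some members, as 7 of them were among the variable genes on which the cells were clustered. With the 10 members left out of the clustering, the class held 37, 64, 53 and 42 cells. Log2 fold changes were then 1.89 for Tnfrsf12a, 2.59 for Sfn, 1.11 for Vim, 1.14 for Akap12 and 2.66 for Krt8, close to those above. However, edgeR called 0 genes in that grouping, 0 at resolution 0.5 and 0 at a mitochondrial limit of 10%, so 0 of the 9, 8 and 8 members tested there were called. At an unadjusted p under 0.05 these fits held 460 of 4759, 670 of 6614 and 433 of 5096 tested genes. The main grouping held 676 of 3767, and DESeq2 called 27 there. Cd44 was also not called with DESeq2, when any 1 of the 4 libraries was left out or with cells named one by one, and Krt8 was not called without young replicate 2 or without aged replicate 2. With the replicate number as a block, Sfn and Tnfrsf12a alone were called. Without the cells that had a UMI of any tubule marker, 21, 37, 24 and 25 parietal cells remained, and Tnfrsf12a, Vim and Akap12 were the 3 members tested, with log2 fold changes of 1.82, 1.57 and 1.27.

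In podocytes the members differed little between the ages. The level of Vim was 2586 and 2605 CPM in young libraries and 3544 and 3457 in aged ones, a log2 fold change of 0.49 ± 0.14. Tnfrsf12a was at 256 and 252 against 349 and 301, a log2 fold change of 0.41 ± 0.13. For both genes the aged libraries lay above the young ones, by far less than in parietal epithelial cells. Krt7 was at 132, 130, 131 and 127, and its log2 fold change of 0.03 ± 0.13 was the smallest of the members tested. Without thinning, Krt7 UMIs were found in 40.0% and 46.2% of young and 48.0% and 54.8% of aged podocytes. These shares follow the order of the median depths, 4191 and 5574.5 UMIs per podocyte in young and 5819 and 7673 in aged libraries.

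The remaining members were near background in podocytes. Akap12 was at 14.3 and 24.2 in young and 11.3 and 11.4 in aged podocytes, lower in both aged libraries by a log2 fold change of -0.62 ± 0.23. Akap12 UMIs were in 4.29% to 8.67% of podocytes, against 0.990% to 8% of B cells, taken as a class that should lack it. Podocytes held more UMIs per cell, so these shares are not from like depths. Per UMI, Akap12 was at 11.3 to 24.2 CPM in podocytes and at 7.24 to 43.3 in B cells, so podocytes stayed within the B cell range. Cd9 stood at 1.56 to 8.80 CPM with overlapping ages. Cd44 had 3 young and 10 aged UMIs in 3980 podocytes, a pooled ratio of 3.46 (0.890 to 19.6). Sfn had 15 and 13 UMIs, Krt8 1 and 0, Krt18 1 and 1, and Krt19 0 and 0. For Krt8, 0 of 1749, 978 and 653 cells in 3 libraries allow up to 0.172%, 0.307% and 0.459% of cells with a detected UMI, which is no limit on cells that express it.

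Of the 5 members that passed the count filter in podocytes, 1 (Vim) was called higher and 3 did not overlap between ages. In that fit, 619 of 10874 genes were called (5.69%), 3.78% of the genes were called higher and 46.1% did not overlap. Nothing is read from these counts, as podocytes took part in the choice of the members. Vim lost its call without either aged library and when cells were named one by one, with log2 fold changes of 0.46 to 0.52 over the 12 alternatives.

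A fit of both classes with the library as a block gave the difference of their age changes. The log2 age change was larger in parietal epithelial cells than in podocytes by 1.74 ± 0.21 for Tnfrsf12a, 2.89 ± 0.71 for Sfn, 1.91 ± 0.24 for Akap12 and 0.91 ± 0.18 for Vim. Under the 9 alternatives these differences ranged from 1.52 to 1.85, from 1.71 to 3.68, from 1.17 to 2.39 and from 0.04 to 1.26. The Vim difference was thus gone at resolution 0.5. For Cd44 (2.97 ± 2.14), Krt8 (4.79 ± 2.63), Krt18 (2.42 ± 2.82), Cd9 (1.06 ± 0.67) and Krt7 (0.47 ± 0.53) the error was too large to place them.

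**Figure D4:**
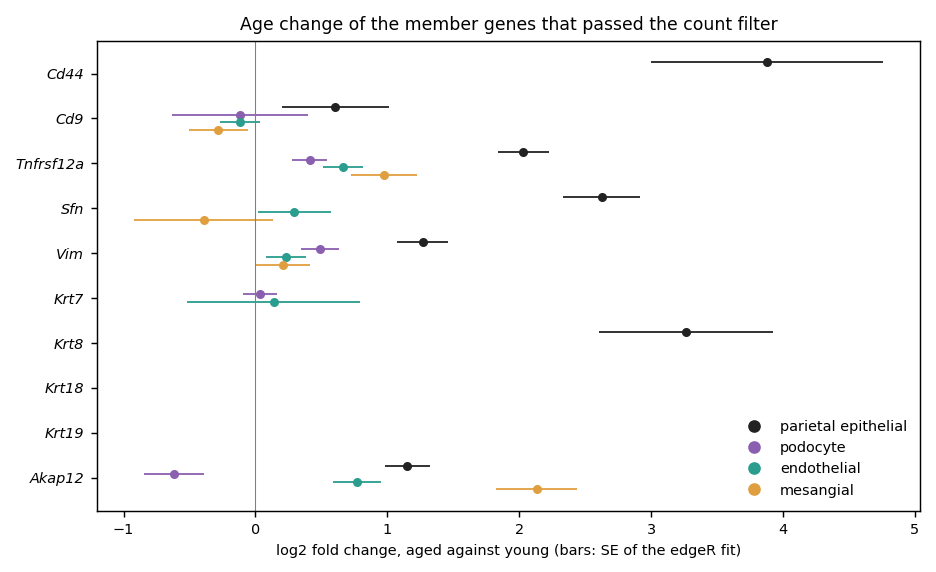
Log2 fold change of aged against young (x axis) with the SE of the edgeR fit for each member that passed the count filter, in parietal epithelial cells (black), podocytes (purple), endothelial (green) and mesangial cells (yellow), from 2 against 2 libraries. Tnfrsf12a lies right of 0 in all 4 classes, Akap12 lies left of 0 in podocytes alone, and Krt18 and Krt19 passed the filter in none.

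Tnfrsf12a and Akap12 were also higher with age in the endothelial and mesangial classes. In endothelial cells Tnfrsf12a was at 167 and 149 CPM in young and 247 and 214 in aged libraries (log2 fold change 0.66 ± 0.15), and Akap12 at 378 and 360 against 694 and 466 (0.77 ± 0.18). In mesangial cells Tnfrsf12a was at 83.9 and 80.5 against 192 and 107 (0.98 ± 0.25), and Akap12 at 354 and 352 against 1969 and 870 (2.13 ± 0.31). The aged libraries were higher in each of these pairs, and the aged mesangial libraries lay far apart. The endothelial class was made of different clusters at each age. A cluster with Sele, Il6 and Selp, genes of activated endothelium, among its leading genes held 8.44% and 7.60% of the class in young and 42.6% and 24.2% in aged libraries. A cluster with Ehd3, a gene of the glomerular capillary, and Kdr, a VEGF receptor, among its leading genes held 43.8% and 42.4% in young and 5.90% and 16.9% in aged libraries. Within the first, Akap12 was at 756 and 748 CPM in young and 1052 and 867 in aged libraries, and within the second at 440 and 400 against 369 and 374, lower in both aged ones. Tnfrsf12a was at 212 and 168 against 251 and 240 in the first and at 193 and 162 against 243 and 204 in the second, higher in both aged libraries of each. In the clusters led by Esm1, Tspan8 and Cenpf, Akap12 overlapped between the ages. In the cluster led by Ier5l, Akap12 was at 286.76 and 294.37 in young and 416.79 and 294.41 in aged libraries. Tnfrsf12a was higher in both aged libraries of the Ier5l, Esm1 and Tspan8 clusters and overlapped in the Cenpf cluster. The part of the shift between clusters in the endothelial class values was not tested further. Cd9 was slightly lower in aged endothelial cells, by a log2 fold change of -0.12 ± 0.15, within its error.

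In endothelial cells 2 of 6 tested members were called and 5 did not overlap, where 5.87% of all genes were called, 3.86% were called higher and 49.0% did not overlap. In mesangial cells 2 of 5 were called and 3 did not overlap, where 6.28% were called, 4.02% were called higher and 53.1% did not overlap. Nothing is read from these counts, as the age contrast in these classes also entered the choice of the members. In both classes the called members were Tnfrsf12a and Akap12. Neither was called in endothelial cells without young replicate 2, without aged replicate 1 or when cells were named one by one, nor in mesangial cells without either young library. In mesangial cells Akap12 alone was called without aged replicate 1 and when cells were named one by one.

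The order of the 4 glomerular classes by level was read within each age, since the members differ between ages. For Tnfrsf12a it leaves out thick limb and distal tubule cells (125 to 639 CPM) and smooth muscle and renin cells (94.8 to 385). These ranges cover libraries with at least 20 cells of the class. Tnfrsf12a ran from parietal epithelial cells (325 and 323 CPM in young, 1339 and 1295 in aged libraries) over podocytes (256 and 252, 349 and 301) and endothelial cells (167 and 149, 247 and 214) to mesangial cells (83.9 and 80.5, 192 and 107). Neighbours in this order did not overlap in either age. Akap12 was highest in parietal cells and lowest in podocytes at both ages without overlap. In between, young mesangial cells (354 and 352) lay just below young endothelial cells (378 and 360), while aged mesangial cells (1969 and 870) lay above aged endothelial cells (694 and 466). Vim in young podocytes (2586 and 2605) lay above that in young parietal cells, and in aged podocytes (3544 and 3457) just below that in aged parietal cells. In mesangial cells Vim was at 941 and 699 in young and 1025 and 722 in aged libraries, and in endothelial cells at 520 to 567. Sfn was at 188 and 106 in young and 253 and 163 in aged B cells, above young and below aged parietal cells. Its mean over the 4 libraries was 5.14 CPM in endothelial, 3.43 in mesangial cells and 1.29 in podocytes.

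Genes whose level followed a member over the 16 sums of the 4 glomerular classes were listed among 6533 genes by Pearson correlation of log2 CPM. Closest to Tnfrsf12a were Dcun1d5 (0.94), Txnl1 (0.93), Maea (0.93) and Psmd11 (0.93). Closest to Krt18 were Epcam (0.99), the adhesion molecule of epithelia, F2rl1 (0.97), Igfbp2 (0.97) and Ms4a2 (0.97). Closest to Cd44 were Atp6v1b2 (0.91), Rdh10, Kars and Npepps, although Cd44 is near 0 in most of these sums. Krt18 was also at 0 in all 4 mesangial sums and had 0 or 1 UMI in each podocyte sum, and 34 of its 52 parietal UMIs lay in 1 cell, so its values rest on few cells. The 16 sums share 4 libraries and fall into 4 classes, so these values describe class patterns.

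Ligands and partners of the members were read from lists of other genes. In the list on CD44, the EGF receptor and MIF, 2 of 11 tested genes rose and 1 fell in aged parietal epithelial cells (median log2 fold change 0.27, all genes 0.00). Spp1, which encodes the CD44 ligand osteopontin, rose by 0.68 ± 0.18 (edgeR adjusted p = 0.0267). Cd24a, a surface protein of epithelial progenitors, rose by 0.85 ± 0.24 (edgeR adjusted p = 0.0439). Cxcl12, the chemokine that binds CXCR4, fell by 1.17 with an SE of 0.33 (edgeR adjusted p = 0.0471). In podocytes 1 of 11 rose, and it was Cxcl12, by 0.58 ± 0.14 (edgeR adjusted p = 0.00721).

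In aged podocytes, 6 of 13 tested genes of TWEAK receptor signalling rose and 0 fell (median 0.60, all genes 0.00). They include Tnfaip3, the A20 inhibitor of NF-kB (log2 fold change 2.49 ± 0.18), the NF-kB inhibitor Nfkbia (1.32 ± 0.14), the ubiquitin ligase Birc3 (1.72 ± 0.20) and the NF-kB-inducing kinase Map3k14 (1.73 ± 0.23), each with an edgeR adjusted p of 5.64e-06 or less. In parietal epithelial cells 1 of 7 rose and 1 fell (median 0.51). The chemokine Cxcl1 rose by 2.30 ± 0.48 (edgeR adjusted p = 0.00718). It had 8 and 16 UMIs in young and 34 and 193 in aged libraries, so most aged UMIs came from aged replicate 2. Tnfsf12, which encodes TWEAK itself, fell by 1.38 with an SE of 0.38 (edgeR adjusted p = 0.0410). These NF-kB genes also answer to other cytokines, and no list was chosen without knowledge of earlier results from these data.

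Among other intermediate filaments and desmosome genes, 1 of 7 rose in parietal cells, Ppl (periplakin, 1.87 ± 0.51, edgeR adjusted p = 0.0380), and 1 of 7 fell in podocytes, Dsp (desmoplakin, -0.80 ± 0.17, edgeR adjusted p = 0.00373). Of the tetraspanins and other partners of CD9, edgeR called 0 of 6 in parietal cells and 0 of 9 in podocytes, with 2 and 1 at an unadjusted p under 0.05 and 0 called by DESeq2. Of the other 14-3-3 proteins and A-kinase anchors, edgeR called 0 of 11 in parietal cells (0 at an unadjusted p under 0.05 and 0 by DESeq2) and 1 of 12 in podocytes, Akap2 (0.53 ± 0.13, edgeR adjusted p = 0.0114).

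Of 14 tested genes that answer to tissue dissociation, 7 were called lower and 0 higher in aged parietal epithelial cells (median -0.94), with Egr1 at -1.52 ± 0.19, Jun at -1.34 ± 0.18, Fosb at -1.27 ± 0.20 and Fos at -1.02 ± 0.21 (largest edgeR adjusted p of these, 0.00593). In podocytes 4 of 14 were higher, among them Atf3, Hspa1a and Hspa1b, and 1 was lower, Dusp1. The part of handling or dissociation in the members' age difference was not tested. DESeq2 called 3 of the 14 dissociation genes in parietal cells, 0 of the other lists' genes there, and 4 of 13 genes of TWEAK receptor signalling in podocytes. In edgeR the parietal calls of every list were 0 when the members were left out of the clustering, at resolution 0.5 and at the mitochondrial limit of 10%.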

How the data were processed

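Glomerular cells of 2 young and 2 aged mouse preparations were profiled with droplet 3' libraries. The deposited matrices hold raw UMI counts per gene and barcode. The labels' extract protocol names Cell Ranger 3.1.0 and GRCm38, whereas the submitters' processing notes name Cell Ranger 6.0.1 and Partek. Which version made the counts is not given in the sources used here. Each library was 1 file set, with 18457791 to 42046542 UMIs.

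Barcodes with at least 500 genes and at most 20% mitochondrial UMIs were kept. The automatic Scrublet threshold marked 134 of 29876 barcodes (0.449%), so the highest-scoring 0.8% per 1000 barcodes were removed instead, 1876 in all, a choice made after that was seen. Cells were clustered without integration (scanpy 1.11.5, leidenalg 0.10.2; 2000 variable genes, 30 components, 15 neighbours, resolution 1), giving 22 clusters, of which 18 were named from marker lists. A cluster took the class with the highest marker level if that was at least 0.35 of the best cluster with at least 3 markers detected. Mixed clusters or cells, with an unrelated class at 0.25 of the best, stayed unnamed. So did a cluster at 3 times the library's median depth or more. A class took part in naming if 3 of its markers were seen in 25% of the cells of a cluster. These thresholds were set after seeing the data.

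UMIs were summed per class and library and compared between ages in edgeR 4.0.16 (R 4.3.3) with TMM, its default filter and its quasi-likelihood F test, age being the only term. The adjustment is that of Benjamini and Hochberg. Classes needed 20 cells in each library. The median log2 fold change of all genes was near 0 in each class. Each SE was derived from the log2 fold change and its F value. The same fit was also run on simulated counts, and nothing above rests on that run. Levels (CPM) are UMIs per 1000000 UMIs of the class sum, without TMM. Alternatives were DESeq2 1.42.0, no count filter, each library left out, the replicate number as a block, other clusterings and filters, and, added after seeing the data, no cells with tubule marker UMIs, no top cell and no keratin-rich cells. Positions are those of GENCODE for GRCm38 and promoters those of RefSeq GRCm38.p6.

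The members, the gene lists and the tests were chosen with earlier results of these data known. Named are all members, up to 4 called genes with the smallest p per list in parietal cells and podocytes, and for 3 members the 4 genes with the closest level pattern, among genes with a mean of at least 20 CPM.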

Additional observations from a re-analysis of the deposited data

Results flagged for a closer look

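Akap12 differed in direction between the cell classes. Its aged levels exceeded the young ones in parietal epithelial cells (log2 fold change 1.15), endothelial cells (0.77) and mesangial cells (2.13) without overlap. They lay below the young ones in podocytes (-0.62), where the CPM level stayed within the range of B cells. The fit of both classes gave a difference of 1.91 between parietal cells and podocytes, which is a description, since both classes entered the choice of the genes. The differences of endothelial and mesangial cells from podocytes were not tested.

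Among the list genes named above, 11 differed in their age change between parietal epithelial cells and podocytes in the interaction test of edgeR with the library as a block. Each had been named for a small p in one of these classes, so the differences are not independent of that choice. The age change was lower in parietal cells by -1.2 for Atf3, -1.66 for Cxcl12, -1.13 for Egr1, -0.77 for Fos, -1.04 for Fosb, -1.34 for Hspa1a, -1.03 for Hspa1b, -1.03 for Jun and -1.13 for Nfkbia on the log2 scale. It was higher in parietal cells by 1.64 for Cxcl1 and 1.69 for Dsp. Of the 11, 7 belong to the dissociation list. With 2 libraries per age, no library could be tested for standing apart.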

How the results depend on the processing

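The count of genes called between the ages depended on the grouping of cells and the tool. In parietal epithelial cells 167 genes were called, against 27 with DESeq2, 79 with cells named one by one, 24 without cells that had tubule marker UMIs, and 0 with the members left out of the clustering, at resolution 0.5 and at the mitochondrial limit of 10%. Leaving out 1 library gave 71 to 163. In podocytes the 619 called genes became 260 with DESeq2 and 151 with cells named one by one, and 280 to 1088 without 1 library. The 765 endothelial calls became 480 and 424, and 412 to 750. The 689 mesangial calls became 393 with DESeq2 and 1259 without the count filter, and 52 to 1696 without 1 library. The cause of these shifts was not tested.

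The titles do not say whether libraries with equal replicate numbers belong together. Deviations of equal numbers correlated at -0.03 (parietal), 0.01 (podocyte), 0.10 (endothelial) and 0.04 (mesangial) across genes. Such values cannot decide whether these libraries were prepared together. With the replicate block, the calls numbered 18 (parietal), 824 (podocyte), 1024 (endothelial) and 1290 (mesangial).

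Calls within the lists moved with these settings, from 0 to 3 genes in the list on CD44, EGFR and MIF in parietal cells and 0 to 2 in podocytes, and from 0 to 3 and 4 to 7 in TWEAK signalling. They ranged from 0 to 10 and 1 to 8 among dissociation genes, 0 to 1 in both classes among filaments and desmosomes and among tetraspanins, and 0 and 0 to 3 among 14-3-3 proteins and A-kinase anchors. Single settings gave dissociation counts of 3 (DESeq2), 2 (replicate block) and 0 (regrouped cells) in parietal cells and 3 and 2 (DESeq2, cells named one by one) in podocytes. TWEAK counts were 4 in podocytes with DESeq2 and with cells named one by one.

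For the members, the log2 fold change moved by less than its SE in 57 of 82 alternatives in parietal cells and 52 of 60 in podocytes, and no called member changed sign. Cd9 in podocytes ranged from -2.21 to 1.27. Depth limits the members with few UMIs, Cd44, Krt18 and Krt19 above all.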
